A study of Mus musculus with 12 samples.

Results

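The integrin chains of fibroblasts, encoded by the 10 genes Itga1, Itga3, Itga5, Itga6, Itga7, Itga11, Itgav, Itgb1, Itgb3 and Itgb5, were followed in mouse embryonic fibroblasts (MEFs) that differ in Arf. The genes were taken by name, with earlier results of these data known, so their counts against all genes are descriptive. All 10 were found among the 20661 genes counted. RNAseq, which counts fragments of mRNA, and RiboSeq (ribosome profiling), which counts the mRNA footprints that ribosomes protect, were run on 3 groups with 2 replicates each, 12 libraries in all. WT-shSCR cells were wildtype MEFs with a scrambled hairpin RNA, labelled C57BL/6J in the sample records but given as B6129SF2/J in the study's methods, and WT-shARF cells were the same strain with a hairpin directed at Arf. Arf-/- -shSCR cells came from the strain labelled B6.129X1-Cdkn2atm1Cjs/KaiJ, in which a neo cassette replaces exon 1β of Cdkn2a, and carried the scrambled hairpin. All cells were at passage 4 and had been transduced with lentivirus and selected, controls included. The knockout and wildtype cells differ in strain as well as in Arf, so strain and Arf cannot be told apart. The labels do not say that replicates were separate cultures, so p-values measure only the spread between these libraries, which may be technical.

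Integrins are membrane receptors made of 1 alpha and 1 beta chain, which bind the extracellular matrix outside the cell and, through talin and kindlin, the actin cytoskeleton inside it. The beta1 chain pairs with most of the alpha chains studied here. With it, alpha1 and alpha11 bind collagens, alpha3, alpha6 and alpha7 bind laminins, and alpha5 binds fibronectin, while alphav pairs with beta1, beta3 or beta5 to bind fibronectin, vitronectin and other ligands.

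Reads on genes numbered 1578627 to 3989908 per RNAseq library and 2544319 to 5157572 per RiboSeq library. Cdkn2a, which encodes ARF and INK4A, was highest where the label was WT-shARF. Its RNA was 43.1 ± 2.4 CPM in WT-shSCR and 30.0 ± 3.4 CPM in Arf-/- -shSCR, but 658 ± 28 CPM where the label was WT-shARF (SD, n = 2 each). CPM are counts scaled to the library's total on genes, that total being adjusted by TMM factors for library composition within each assay. The counts do not separate the ARF and INK4A transcripts, so they do not measure ARF itself. The study reports both the knockdown and the knockout of ARF by immunoblot, which is not analysed here. As the counts cannot check the knockdown, the labels of that group are quoted as labels throughout. The 10 fibroblast markers had a summed RNA level of 13350 to 17648 CPM over all 6 RNAseq libraries. Collagens held much of this sum, with means of 4518 CPM for Col1a2 and 3732 CPM for Col1a1 in WT-shSCR. Not each marker was high, as 9 of the 10 passed the filter on low counts in RNA of Arf-/- -shSCR against WT-shSCR. In RNA of the libraries labelled WT-shARF against WT-shSCR, 8 passed. Summed macrophage markers (15 in the files, none at 0 counts in every library) reached 692 to 698 CPM in WT-shSCR RNA and 63.0 to 103 CPM in Arf-/- -shSCR RNA. They reached 260 to 352 CPM where the label was WT-shARF. Summed epithelial and mesothelial markers were at 99.9 CPM in the lower WT-shSCR RNA library, at 64.8 to 79.1 CPM where the label was WT-shARF, and reached 174 to 193 CPM in Arf-/- -shSCR RNA. In such bulk libraries, fewer cells of a type and less RNA per cell cannot be told apart.

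The level of each chain was first compared between genes as CPM per kilobase of coding sequence, since longer genes collect more reads. Itgb1 was highest in both assays and all 3 groups. In WT-shSCR footprints it stood at 1506 CPM per kilobase, followed by Itga5 at 509, Itgav at 311, Itgb5 at 78.4 and Itga11 at 55.8. The order went on with Itga3 at 35.4, Itgb3 at 28.2, Itga6 at 21.0, Itga7 at 20.8 and Itga1 at 10.5 CPM per kilobase. The libraries of Itga3 and Itgb3 overlapped, as did those of Itga6 and Itga7, so these neighbours did not differ beyond their spread. In WT-shSCR RNA, Itgb5 ranked above Itgav at 163 against 124 CPM per kilobase, with no overlap, whereas in footprints Itgav ranked above Itgb5. Itga7, the chain of a laminin receptor best known from muscle, stood sixth in RNA at 29.1 CPM per kilobase and ninth in footprints, and its RNA libraries overlapped those of Itga11, the fifth. Together Itgb1, Itga5 and Itgav, the chains of the main fibronectin receptors, made up 76.5 to 79.4% of the summed RNA level of the 10 genes and 88.2 to 91.3% of their summed footprint level over the 6 libraries of each assay.

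**Figure D1:**
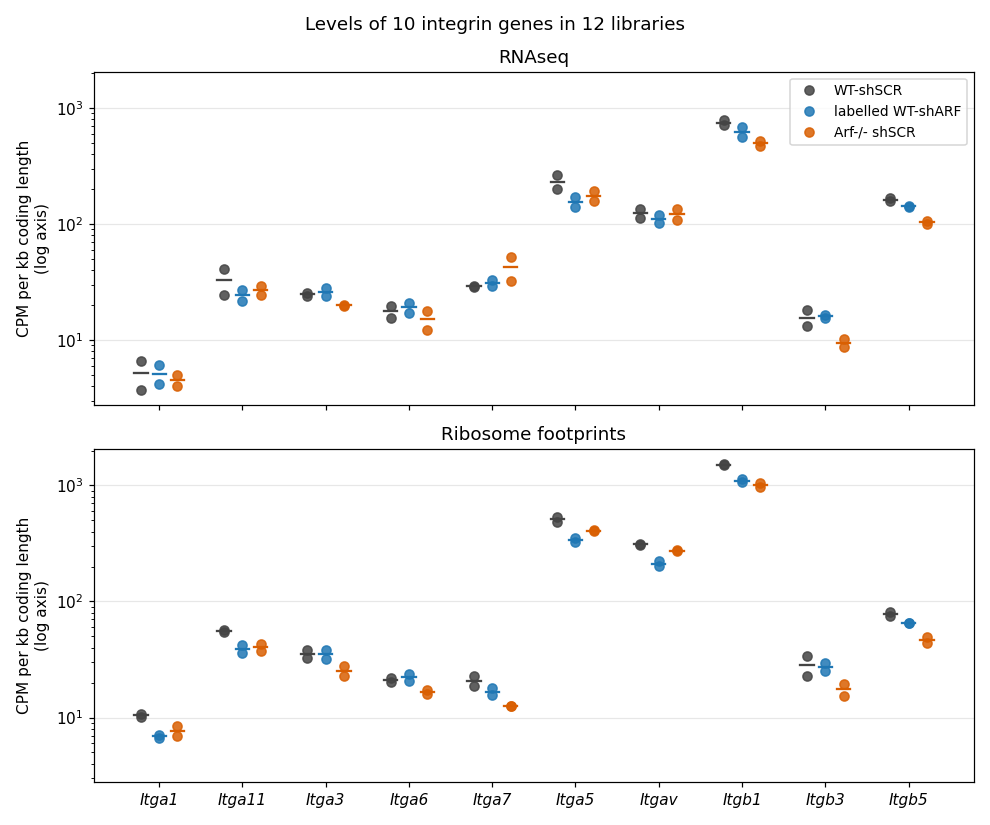
Levels of the 10 genes in each library, in CPM per kilobase of coding sequence on a log axis, for RNAseq above and ribosome footprints below. Points are libraries, short lines are group means and colours are groups. Itgb1 is highest in every group, and in WT-shSCR Itgb5 lies above Itgav in RNA (163 against 124) and below it in footprints (78.4 against 311).

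The sum of the 3 beta chains was set against that of the 7 alpha chains on the same scale. Itgb1 made up 92.1 to 94.3% of the beta sum in footprints and 78.2 to 81.7% in RNA. Of the alpha sum in footprints, Itga5 made up 47.9 to 54.2% and Itgav 30.3 to 35.2%. The ratio thus mostly sets Itgb1 against Itga5 and Itgav. In footprints the beta sum was 1.72 and 1.63 times the alpha sum in the WT-shSCR libraries, 1.82 and 1.73 times in the libraries labelled WT-shARF and 1.33 and 1.42 times in Arf-/- -shSCR. Both Arf-/- -shSCR libraries lay below the other 4. In RNA the ratio was 2.13 and 1.87 for WT-shSCR, 1.93 and 2.29 for the label WT-shARF and 1.61 and 1.40 for Arf-/- -shSCR, which was again lowest. With 2 libraries a group, an exact permutation test cannot go below a two-sided p of 0.33, and no test was made of these ratios.

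The comparison of Arf-/- -shSCR with WT-shSCR asked what changes in cells without Arf. In RNA, Itgb1 and Itgb5 fell, Itga7 was 1.44 times as high without passing the test, and the other 7 genes had values below 0 that did not pass. A gene was called where the quasi-likelihood test of edgeR gave a p under 0.05 after adjustment over all genes (Benjamini-Hochberg). Thus 2 of 10 genes were called lower, against 3.99% of all 10659 genes tested, and 0 higher, against 3.94% (DESeq2 likewise called 0 higher). An unadjusted p under 0.05 was found for 5 of the 10, and for 2378 of all genes tested. The median log2 fold change of the 10 genes was -0.31, against -0.0038 over all genes tested.

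Itgb1 RNA was 1746 and 1931 CPM in the WT-shSCR libraries and 1290 and 1167 CPM in Arf-/- -shSCR. Every Arf-/- -shSCR library lay below every WT-shSCR library, and the log2 fold change was -0.60 ± 0.14 (standard error, adjusted p = 0.01342 by edgeR). Itgb5, which encodes the beta chain of the vitronectin receptor alphav beta5, was at 390 and 417 CPM in WT-shSCR RNA and at 266 and 250 CPM in Arf-/- -shSCR RNA. Its groups did not overlap either, and it had a log2 fold change of -0.66 ± 0.15 (edgeR adjusted p = 0.007728). The groups did not overlap for 6 of the 10 genes, as for 51.6% of all genes tested. Among those not called, Itgb3 RNA was 31.3 and 42.7 CPM in WT-shSCR and 24.0 and 20.8 CPM in Arf-/- -shSCR, a log2 fold change of -0.72 ± 0.28 (edgeR adjusted p = 0.1331). Without WT-shSCR RNAseq replicate 1 or 2, neither call held (edgeR adjusted p of 0.06937 and 0.165 for Itgb1, 0.08265 and 0.1426 for Itgb5). Without Arf-/- -shSCR RNAseq replicate 2, Itgb1 was not called (0.08059).

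The sequence before the transcription start is shown for the 3 genes whose RNA was called in either comparison with WT-shSCR, Itgb1, Itgb5 and Itga5, so that the windows can be read against each other. RefSeq promoter windows on GRCm38.p6 were found for 7 of the 10 genes, the exceptions being Itga6, Itga7 and Itgb3. Each line below gives the 250 bases upstream of the annotated start, 5′ to 3′ on the gene's strand, with every GC box (GGGCGG or its reverse complement CCGCCC) in capitals.
Itgb1, chr8:128685404-128685653, strand plus: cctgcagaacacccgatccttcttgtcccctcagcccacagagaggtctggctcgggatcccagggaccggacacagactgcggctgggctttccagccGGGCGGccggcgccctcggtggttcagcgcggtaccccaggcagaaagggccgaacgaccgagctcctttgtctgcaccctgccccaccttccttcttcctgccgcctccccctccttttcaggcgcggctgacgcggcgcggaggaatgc
Itgb5, chr16:33829415-33829664, strand plus: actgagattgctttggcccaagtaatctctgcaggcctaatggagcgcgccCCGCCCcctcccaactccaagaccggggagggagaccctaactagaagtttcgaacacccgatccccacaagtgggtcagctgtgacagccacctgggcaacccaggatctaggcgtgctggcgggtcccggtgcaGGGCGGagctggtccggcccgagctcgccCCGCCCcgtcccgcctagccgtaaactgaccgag
Itga5, chr15:103366792-103367041, strand minus: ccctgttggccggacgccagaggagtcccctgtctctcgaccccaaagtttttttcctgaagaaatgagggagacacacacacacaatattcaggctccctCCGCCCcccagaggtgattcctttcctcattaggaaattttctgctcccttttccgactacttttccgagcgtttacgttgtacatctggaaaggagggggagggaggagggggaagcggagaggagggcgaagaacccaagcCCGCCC
Itgb1 held 1 GC box, Itga5 2 and Itgb5 3. Among the genes with a window whose RNA was not called, Itga3 held 3 (1 in a second window) and Itgav, Itga11 and Itga1 held 0. No window of the 7 genes held the letters TATAAA on either strand. Of the 32851 windows of this length that were scored, with 1 chromosome left out, 32.7% held at least 1 GC box and 12.4% held TATAAA. These matches describe the letters only. In the GENCODE M21 annotation of GRCm38, the genes themselves span chr8:128685654-128733200 (Itgb1, plus strand), chr16:33829665-33949338 (Itgb5, plus) and chr15:103344286-103366763 (Itga5, minus), and the reads were counted on their coding exons.

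In footprints of Arf-/- -shSCR, 7 of the 10 genes were called lower (against 8.95% of all 10737 genes tested), and 0 were called higher by edgeR (against 9.57%) or by DESeq2. All 10 had a log2 fold change below 0, with a median of -0.51 against -0.00087 over all genes tested. For all 10 the Arf-/- -shSCR and WT-shSCR libraries did not overlap, as for 57.6% of all genes tested.

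Itgb1 footprints were 3744 and 3681 CPM in WT-shSCR and 2403 and 2608 CPM in Arf-/- -shSCR, a log2 fold change of -0.60 ± 0.06 (edgeR adjusted p = 4.927e-09). The fall was thus close to that of its RNA. Itgb5 footprints fell from 185 and 203 CPM to 122 and 110 CPM, with a log2 fold change of -0.78 ± 0.13 (edgeR adjusted p = 2.907e-05). Itgb3, the beta chain of the alphav beta3 receptor, was at 53.6 and 79.4 CPM in WT-shSCR footprints and at 36.5 and 46.1 CPM in Arf-/- -shSCR footprints, a log2 fold change of -0.72 ± 0.20 (edgeR adjusted p = 0.009252). All 3 beta chains were therefore called lower.

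Among the alpha chains, 2 that bind laminin and 1 that binds collagen were called lower. Itga7 footprints were 83.1 and 68.9 CPM in WT-shSCR and 45.7 and 45.5 CPM in Arf-/- -shSCR, a log2 fold change of -0.77 ± 0.17 (edgeR adjusted p = 0.001393). Itga3 footprints were 133 and 112 CPM against 95.4 and 79.5 CPM, with a log2 fold change of -0.52 ± 0.15 (edgeR adjusted p = 0.01152). Itga11 footprints, of the collagen receptor of fibroblasts, were 204 and 194 CPM against 134 and 155 CPM, with a log2 fold change of -0.50 ± 0.12 (edgeR adjusted p = 0.003614). Itga5, the fibronectin receptor chain, fell least of the called genes. Its footprints were 1536 and 1700 CPM in WT-shSCR and 1291 and 1305 CPM in Arf-/- -shSCR, a log2 fold change of -0.35 ± 0.07 (edgeR adjusted p = 0.0004566). Itgav at -0.21 ± 0.08 (edgeR adjusted p = 0.05109), Itga6 at -0.38 ± 0.17 (0.116) and Itga1 at -0.48 ± 0.23 (0.1516) did not pass, although with all groups in one fit Itgav did (0.03697). Itga1 footprints, the lowest of the 10 per kilobase, were 36.0 and 37.9 CPM in WT-shSCR and 24.5 and 29.7 CPM in Arf-/- -shSCR. Itga6 footprints were 74.3 and 67.8 CPM against 58.1 and 53.6 CPM.

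With each of the 4 libraries left out in turn, all 10 values stayed below 0, and that of Itgb1 lay between -0.66 and -0.54. Itgb3 moved most, from -0.97 to -0.40, the last without WT-shSCR RiboSeq replicate 2 (edgeR adjusted p = 0.3439), and Itga3 lay between -0.65 and -0.38. Without either WT-shSCR RiboSeq library, however, edgeR called 0 of the 10 genes and 0 of all genes, and the median prior degrees of freedom of its variance estimate fell from 29.1 to 2.93 and 2.85. DESeq2 on the same libraries, an alternative chosen after seeing the data, called 4 and 2 of the 10 lower. Without either Arf-/- -shSCR RiboSeq library, edgeR called 5 and 6 and DESeq2 3 and 3. Macrophage markers fell in the same comparison (13 of 14 tested in footprints) and epithelial and mesothelial markers rose (7 of 8), and their part in the integrin values was not tested.

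**Figure D2:**
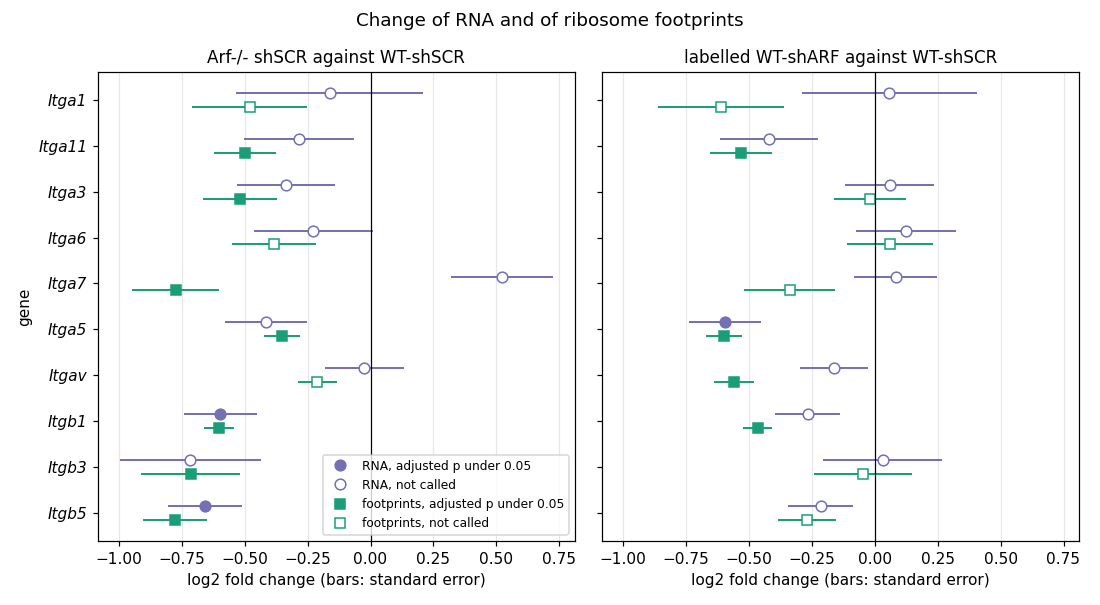
Log2 fold changes against WT-shSCR, with standard errors, of RNA (circles) and footprints (squares) for Arf-/- -shSCR on the left and the libraries labelled WT-shARF on the right, which share the WT-shSCR libraries. Filled symbols have an edgeR adjusted p under 0.05, 2 RNA and 7 footprint values on the left and 1 and 4 on the right. On the left, Itga7 is the gene whose RNA and footprints lie on either side of 0 (0.52 and -0.77).

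Translation efficiency (TE) is footprints divided by RNA, and its change was tested in 8 libraries at once, as the difference between the footprint and the RNA change. Of the 10 genes, 1 was called lower in Arf-/- -shSCR, against 0.106% of all 11314 genes tested, and 0 higher, against 0.0884%. This was Itga7, with a log2 change of TE of -1.33 ± 0.28 (edgeR adjusted p = 0.04595), or 0.398 of the WT-shSCR value. The other 9 lay between -0.36 (Itga1) and 0.03 (Itga5) and did not pass. In simulated data the TE test called few of the changed genes, so a missing call does not show an unchanged TE. The same limit holds for the TE comparisons below. For Itgb1 the change of TE was -0.04 ± 0.14 and for Itgb5 -0.15 ± 0.18.

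Itga7 RNA was 108 and 105 CPM in WT-shSCR and 118 and 191 CPM in Arf-/- -shSCR. The groups did not overlap, the highest value came from Arf-/- -shSCR replicate 2, and the RNA change of 0.52 ± 0.20 on the log2 scale did not pass (edgeR adjusted p = 0.1265). Without Arf-/- -shSCR RNAseq replicate 1 Itga7 RNA was called higher (0.83, edgeR adjusted p = 0.004663). Without replicate 2 the RNA change was 0.15 and the TE change -0.93 (edgeR adjusted p = 0.1837). Leaving out any library except Arf-/- -shSCR RNAseq replicate 1 ended the TE call, with adjusted p of 0.07576 to 0.2698 over these 7 fits and values of -1.44 to -0.93. DESeq2 gave -1.30 ± 0.33 with an unadjusted p of 6.483e-05 and no adjusted p, since its filter on mean counts set Itga7 aside. Itga7 spans chr10:128933818-128958282 on the plus strand (GRCm38). Mettl7b, which lies on the opposite strand and overlaps Itga7, had at most 1 count in any library. Summed skeletal muscle markers lay at 184 to 201 CPM in WT-shSCR RNA and 152 to 187 CPM in Arf-/- -shSCR RNA. Of the 8 listed, 2 passed the filter on low counts in this RNA comparison. Acta1 was called lower, at -1.25 ± 0.21 on the log2 scale (edgeR adjusted p = 0.0007266), and the other was not called. Their part in the Itga7 values was not tested.

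**Figure D3:**
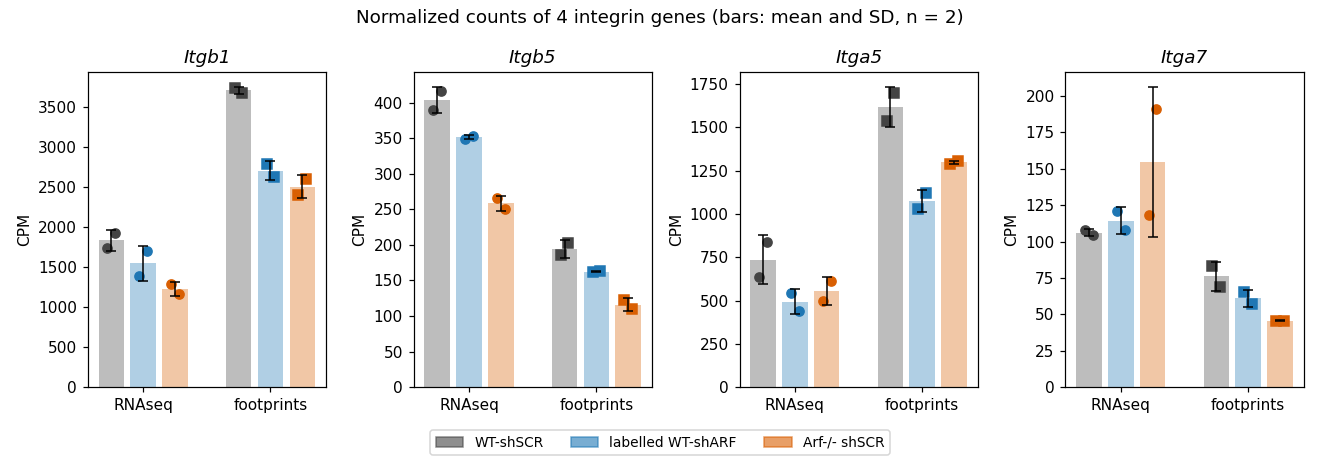
CPM of Itgb1, Itgb5, Itga5 and Itga7 in RNAseq (circles) and footprints (squares), with bars for the mean, error bars for the SD (n = 2) and axes from 0. For Itga7 the 2 Arf-/- -shSCR RNA libraries lie far apart (118 and 191 CPM), while the 2 footprint libraries nearly coincide (45.7 and 45.5 CPM).

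The libraries labelled WT-shARF were compared with the same WT-shSCR libraries, so the 2 comparisons are not independent. In RNA, Itga5 was called lower (1 of 10, against 4.17% of all 10503 genes tested) and 0 were called higher by edgeR (against 3.11%) or DESeq2. At an unadjusted p under 0.05 were 3 of the 10, and 2215 of all genes tested. Itga5 RNA was 637 and 836 CPM in WT-shSCR and 543 and 442 CPM where the label was WT-shARF. The log2 fold change was -0.60 ± 0.14 (edgeR adjusted p = 0.007759). The groups did not overlap for 3 of the 10 genes, as for 49.5% of all genes. Without WT-shSCR RNAseq replicate 2 the value was -0.38 (adjusted p = 0.08719), and without RNAseq replicate 2 labelled WT-shARF it was -0.43 (0.2776), so the call did not hold in either case.

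In footprints 4 of the 10 genes were called lower (against 5.5% of all 10307 genes tested) and 0 higher by edgeR (against 5.63%) or DESeq2. Itga5 footprints were at 1029 and 1122 CPM under this label, below both WT-shSCR libraries, with a log2 fold change of -0.60 ± 0.07 (edgeR adjusted p = 2.398e-07). Itgav footprints were 956 and 989 CPM in WT-shSCR and 698 and 633 CPM under the label WT-shARF, a log2 fold change of -0.56 ± 0.08 (edgeR adjusted p = 4.012e-06). Both alpha chains bind fibronectin, and for both the groups did not overlap.

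Itgb1 footprints were 2790 and 2625 CPM, with a log2 fold change of -0.47 ± 0.06 (edgeR adjusted p = 4.083e-07). Itga11 footprints were 151 and 128 CPM, with a log2 fold change of -0.53 ± 0.12 (edgeR adjusted p = 0.003038). The first 3 calls held with each library left out, and that of Itga11 was lost without RiboSeq replicate 2 labelled WT-shARF (adjusted p = 0.1673). Itga1 at -0.61 ± 0.25 (edgeR adjusted p = 0.1175), Itga7 at -0.34 ± 0.18 (0.2578) and Itgb5 at -0.27 ± 0.12 (0.1447) were not called. Their groups did not overlap. Itga3, Itga6 and Itgb3 had values between -0.05 and 0.06 with overlapping groups. Of the 10 values, 9 lay below 0, with a median of -0.40 against -0.0028 over all genes tested. The groups did not overlap for 7 of the 10 genes, as for 51.5% of all genes.

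TE was called for 0 of the 10 genes in the libraries labelled WT-shARF, with edgeR, against 0.0354% of all 11289 genes tested called higher and 0% called lower. Itgav had an unadjusted p under 0.05, at -0.39 ± 0.16 on the log2 scale (edgeR adjusted p = 0.6678), as had 751 of all genes tested. DESeq2 called 0 of the 3 genes to which it gave an adjusted p. Macrophage markers were lower in these footprints (7 of 14 called), as were smooth muscle markers, with 6 of 6 called and a summed footprint level of 14923 to 15581 CPM against 19076 to 19989 CPM in WT-shSCR. Their part in the integrin values was not tested.

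Arf-/- -shSCR and the libraries labelled WT-shARF were then compared directly. In footprints 2 of the 10 genes were higher in Arf-/- -shSCR (against 3.93% of all 10941 genes tested) and 3 lower (against 4.3%). Itgav was at 849 and 872 CPM in Arf-/- -shSCR, a log2 difference of 0.34 ± 0.07 (edgeR adjusted p = 0.004763), and Itga5 differed by 0.24 ± 0.06 (0.01729). Itgb5, at 162 and 163 CPM under the label WT-shARF, was lower in Arf-/- -shSCR by a log2 difference of -0.51 ± 0.12 (edgeR adjusted p = 0.009132). Itgb3 at -0.68 ± 0.18 (0.02221) and Itga3 at -0.51 ± 0.14 (0.03196) were lower as well. The fibronectin receptor alpha chains and these other 3 chains thus differed in opposite directions. Without either RiboSeq library labelled WT-shARF, edgeR called 0 of the 10 and 0 and 1 of all genes, with a median prior of 2.91 degrees of freedom against 15.9, and DESeq2 called 1 and 0 of the 9 genes with an adjusted p. All 5 differences kept their sign with each library left out. The groups did not overlap for 8 of the 10 genes, as for 50.6% of all genes. In this comparison smooth muscle markers (6 of 6 called) and epithelial and mesothelial markers (7 of 8) were higher in Arf-/- -shSCR and macrophage markers were lower (10 of 14), and their part was not tested.

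In RNA, 0 of the 10 genes were called between these groups by edgeR or DESeq2, against 1.38% higher and 1.19% lower of all 10632 genes tested. An unadjusted p under 0.05 was found for 5 of the 10, and for 1740 of all genes tested. The groups did not overlap for 4 of the 10, as for 47.1% of all genes. Itgb5 came nearest, at -0.45 ± 0.13 on the log2 scale (edgeR adjusted p = 0.07925). In TE, edgeR called 0 of the 10 and DESeq2 0 of the 8 with an adjusted p, against 0.0172% higher and 0.0258% lower of all 11632 genes tested by edgeR, with 1 at an unadjusted p under 0.05. This was Itga7, at -0.87 ± 0.26 (edgeR adjusted p = 0.3481), and 880 of all genes tested had such an unadjusted p.

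Footprints were also set against RNA within each group, as a ratio of CPM. In WT-shSCR, 7 of the 10 genes had more footprints per RNA than the TMM-scaled average (against 19.4% of all 10693 genes tested) and 1 had fewer (against 20.2%). Of the lists counted further below, 9 of 12 membrane partners and 19 of 22 matrix genes were called higher too in this group. Of adhesion adaptors 10 of 32 were higher and 5 lower, and of other integrin chains 0 of 8 were called. Among the 10 genes, Itgav had the highest ratio, 2.51, followed by Itga5 at 2.20, Itgb1 at 2.02 and Itga1 at 2.01. The ranges over pairs of libraries overlapped between Itgav (2.28 to 2.79) and Itga5 (1.84 to 2.67), so their order was not beyond the spread, nor was that of Itga1 (1.53 to 2.88). Itgb5 had the lowest, 0.481, with a log2 value of -1.01 ± 0.14 (edgeR adjusted p = 3.178e-07).

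In the libraries labelled WT-shARF, 6 were called higher (against 21.3% of all genes) and 2 lower (against 22.5%), and in Arf-/- -shSCR 6 higher (21.2%) and 2 lower (22.8%). Itgb5 stayed at 0.461 and 0.450 in these 2 groups, near its WT-shSCR ratio. The ratio of Itga7 was 0.716 in WT-shSCR, 0.533 in the libraries labelled WT-shARF and 0.295 in Arf-/- -shSCR, and it was called lower than the average in the last 2 groups. Each ratio is relative to the TMM-adjusted library totals, so it is no absolute rate.

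**Figure D4:**
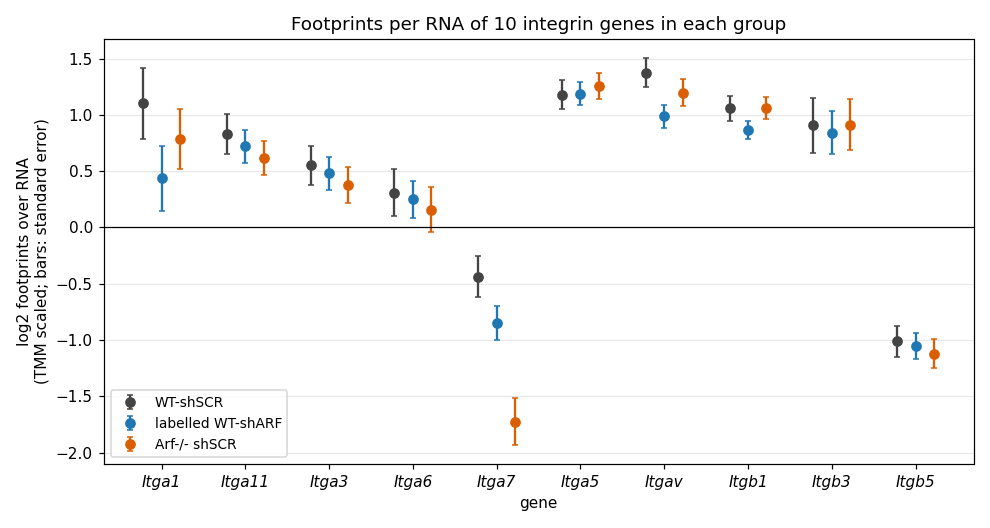
Footprints over RNA of each gene in each group, on a log2 scale after TMM scaling, with standard errors. Itgb5 lies near -1 in all 3 groups (-1.01, -1.06 and -1.12), while Itga7 lies at -0.44, -0.85 and -1.72.

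Other genes of the pathway were counted from 4 lists, also chosen with earlier results of these data known. Their counts against all genes are thus descriptive. As given above, edgeR calls in footprints of Arf-/- -shSCR were lost without either WT-shSCR RiboSeq library. The edgeR variance estimate then had few prior degrees of freedom, and DESeq2 still made calls on the same libraries. Of 17 other integrin chains, 9 passed the filter in footprints, and 3 of them fell in Arf-/- -shSCR, all of them leukocyte chains. Itgam fell by 3.45 on the log2 scale (edgeR adjusted p = 3.406e-11), Itgb2 by 3.70 (9.61e-09) and Itgal by 2.34 (0.001427). Itgam and Itgb2 are themselves on the macrophage list. Fibroblast chains outside the 10, such as Itga8 at 0.10 ± 0.26 and Itga9 at -0.61 ± 0.36, did not pass.

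On the cytoplasmic side, 7 of 32 adhesion adaptors fell in Arf-/- -shSCR footprints and 0 rose, against 8.95% and 9.57% of all genes tested, with a list median of -0.17. Pxn (paxillin, a focal adhesion scaffold) fell by 1.15 on the log2 scale (edgeR adjusted p = 3.854e-05) and Fermt3, the kindlin of blood cells, by 4.11 (3.289e-06). In the libraries labelled WT-shARF, 8 of 32 fell in footprints and 0 rose, against 5.5% and 5.63% of all genes, among them Flna (filamin A, an actin crosslinker) at -0.44 ± 0.05 and Vcl (vinculin) at -0.36 ± 0.06 (edgeR adjusted p = 2.378e-07 and 0.0001336).

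Of 22 matrix genes, 15 fell and 2 rose in Arf-/- -shSCR footprints, against 8.95% and 9.57% of all genes, with a median of -0.55. Fn1, which encodes fibronectin, the ligand of alpha5 beta1, had a mean of 15940 ± 183 CPM in WT-shSCR and 8358 ± 380 CPM in Arf-/- -shSCR (SD, n = 2), and its log2 fold change was -0.97 ± 0.05 (edgeR adjusted p = 2.311e-16). Spp1 (osteopontin, an alphav ligand) fell by 1.26 (2.798e-13), while Col3a1, a fibrillar collagen, rose by 0.78 ± 0.08 (8.085e-09). In the libraries labelled WT-shARF, 7 fell and 6 rose, against 5.5% and 5.63% of all genes. Fn1 was at -0.33 ± 0.04 (edgeR adjusted p = 1.479e-06) and Col3a1 at 1.18 ± 0.08 (1.528e-13).

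Among 12 membrane partners, 5 fell and 2 rose in Arf-/- -shSCR footprints, and 4 fell and 3 rose in the libraries labelled WT-shARF. Over all genes the shares were 8.95% lower and 9.57% higher in the first comparison and 5.5% and 5.63% in the second. Cd151, a tetraspanin that binds the laminin receptors alpha3 beta1 and alpha6 beta1, was at 141 ± 15 CPM in WT-shSCR footprints and 93.1 ± 4.9 CPM in those of Arf-/- -shSCR, against 254 ± 24 CPM where the label was WT-shARF (SD, n = 2). It rose by 0.84 ± 0.12 on the log2 scale in the libraries labelled WT-shARF and fell by 0.63 in Arf-/- -shSCR (edgeR adjusted p = 4.244e-06 and 0.001204), and the direct difference was -1.48 ± 0.11 (5.52e-08).

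The genes whose level was most like that of Itgb1 across the 12 libraries, by Pearson r of log2 CPM centred within each assay over 9463 genes, were Serinc3 at 0.974, Cpe at 0.974, Plod2 at 0.968, App at 0.966 and Lamb1 at 0.959. Of the other integrin genes Itgb5 came closest at 0.872 and Itga7 was farthest at 0.0373. These values are a description, since the libraries share groups and depth.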

How the data were processed

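RNA and footprints were counted by the authors in 12 libraries. They clipped adapters, extracted molecular identifiers with UMI-tools, trimmed with cutadapt, removed rRNA and noncoding reads with Bowtie2, aligned to mm10 with TopHat and counted coding sequence with HTSeq. Versions and a removal of duplicates by identifier are not given in the sources used here. What the authors deposited is a raw count for each gene, with no normalization. In each library 79.2 to 81.4% (RNAseq) or 46.3 to 52.9% (RiboSeq) of reads were not uniquely placed, as the rows of the files that name no gene give it, and those rows were left out of library sizes.

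Genes were kept by filterByExpr, scaled by TMM and tested with the quasi-likelihood method of edgeR 4.0.16 (R 4.3.3), over 4 libraries (RNA or footprints) or 8 (TE, the interaction of assay and condition). The threshold was 0.05 after Benjamini-Hochberg adjustment over all genes tested. CPM divides by all reads on genes, adjusted by TMM factors over the libraries of each assay. Coding lengths came from GENCODE M21. Alternatives were DESeq2 1.42.0, RLE factors, no filter, all groups in one fit, a replicate block and leaving out each library. The fits were tested on simulated data, in which the TE test called few of the genes that had been changed. Python 3.11.15 drew the figures. Genes were named as the 10 members and, from each list, up to 3 called rises and 3 called falls with the smallest adjusted p, of which some are printed. Itga8, Itga9 and Mettl7b were named after their values were seen. Members and lists were chosen with earlier results of these data known.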

Additional observations from a re-analysis of the deposited data

Results flagged for a closer look

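The change of Itga7 in Arf-/- -shSCR differed between the assays by the interaction test, with a log2 change of TE of -1.33 ± 0.28 (edgeR adjusted p = 0.04595, n = 2 libraries per group and assay). Its RNA was at 0.52 ± 0.20 and its footprints at -0.77 ± 0.17, and both Arf-/- -shSCR footprint libraries lay below both WT-shSCR ones. The call was lost in 7 of the 8 fits that left out a library.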

How the results depend on the processing

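Of 583 values of single genes under the 5 settings other than leaving out a library, 569 kept their direction and side of the threshold, 2 lost the call, 7 gained one and 5 uncalled values changed sign. DESeq2 gave no adjusted p for 17 further values, which are not counted. The 5 were Itgb1 and Itgb3 in TE of Arf-/- -shSCR (0.091 and 0.092 without a filter, 0.027 and 0.025 with all groups in one fit) and Itga1 RNA in the libraries labelled WT-shARF (-0.013 with the replicate block). Correlations of same-numbered deviations ran from -0.083 to 0.053 and showed no pairing by replicate number. They cannot exclude a pairing, since genes with as few as 10 counts entered them. The replicate block moved no count of called members by over 1.5 times, apart from members with fewer footprints than RNA in WT-shSCR. These numbered 2 in place of 1, and RLE factors also gave 2. In footprints of Arf-/- -shSCR against WT-shSCR, the block called 8 members lower in place of 7, with Itgav added. With DESeq2 the count of TE falls in Arf-/- -shSCR was 0, with no adjusted p for Itga7. Over all genes, DESeq2 called 230 higher and 237 lower in RNA of Arf-/- -shSCR (edgeR 420 and 425), 62 and 13 in its TE (10 and 12) and 47 and 3 in TE of the libraries labelled WT-shARF (4 and 0), where the replicate block gave 28 and 7.

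With each library left out, counts of called members ranged as follows. For Arf-/- -shSCR against WT-shSCR they were 0 to 1 higher and 0 to 2 lower in RNA, 0 to 6 lower in footprints (edgeR and DESeq2) and 0 to 1 lower in TE. For the libraries labelled WT-shARF, 0 to 2 were lower in RNA. Between Arf-/- -shSCR and these, 0 to 1 were higher and 0 to 2 lower in RNA, 0 to 2 higher and 0 to 2 lower in footprints, and 0 to 1 lower in TE. Members with more footprints than RNA in Arf-/- -shSCR numbered 3 to 5. Of 600 values of single genes in these edgeR fits, 60 lost the call, 7 gained one and 73 changed sign, none of them called in either fit. In RNA of Arf-/- -shSCR against WT-shSCR, the ranges were Itga1 -0.57 to 0.29, Itga11 -0.63 to 0.13, Itgav -0.19 to 0.13, Itga6 -0.55 to 0.032. In TE in the same comparison, the ranges were Itga1 -0.78 to 0.067, Itga6 -0.43 to 0.13, Itga11 -0.65 to 0.11, Itgb1 -0.11 to 0.094, Itgb3 -0.25 to 0.28, Itga5 -0.18 to 0.26. In RNA of the libraries labelled WT-shARF against WT-shSCR, the ranges were Itga1 -0.35 to 0.49, Itga6 -0.051 to 0.30, Itgb3 -0.20 to 0.25, Itga7 -0.0047 to 0.19, Itga3 -0.057 to 0.16. In footprints there, the ranges were Itga3 -0.15 to 0.12, Itgb3 -0.32 to 0.27, Itga6 -0.032 to 0.16. In TE there, the ranges were Itga6 -0.26 to 0.13, Itga11 -0.54 to 0.25, Itgb3 -0.33 to 0.24, Itgb5 -0.13 to 0.026, Itga5 -0.24 to 0.20, Itga3 -0.19 to 0.062. In RNA of Arf-/- -shSCR against the libraries labelled WT-shARF, the ranges were Itga1 -0.41 to 0.089, Itga11 -0.0001 to 0.28, Itgav -0.035 to 0.28. In footprints there, the ranges were Itga11 -0.12 to 0.16, Itga1 -0.024 to 0.26. In TE there, the ranges were Itga3 -0.24 to 0.037, Itga5 -0.094 to 0.23, Itga6 -0.36 to 0.24, Itga11 -0.26 to 0.038, Itgb3 -0.10 to 0.23, Itgb5 -0.14 to 0.017. In footprints over RNA within Arf-/- -shSCR, the ranges were Itga6 -0.075 to 0.48. The cause of these shifts was not tested.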
